A study of Homo sapiens with 9 samples.

Results

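The rows described here form 5 pairs in which a gene lies on the DNA strand opposite a gene of DNA replication or mitosis: PCNA-AS1 with PCNA, ENOSF1 with TYMS, UBXN6 with CHAF1A, HMMR-AS1 with HMMR, and TMPO-AS1 with TMPO. They were found by gene name and make up 10 of the 26008 gene rows of a count table. HCT8, a human cell line established from an adenocarcinoma of the ileocecal region, was kept for 5 h with membrane vesicles shed by Vibrio cholerae C6706, with those of Escherichia coli MC1061, or with the vehicle, 20 mM Tris-HCl, which the sample labels call no treatment. Polyadenylated RNA was sequenced as strand-marked libraries from 3 samples in each of the 3 groups. The pairs were chosen by their values in earlier results of these data, namely the vesicle comparisons and the size of the first row of each pair. The levels and fold changes below are therefore a description, and the adjusted p-values beside them support no claim about these rows.

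PCNA is the ring-shaped clamp that holds DNA polymerases on the template, and CHAF1A is the large subunit of the complex that places new histones behind the replication fork. TYMS makes thymidylate, the nucleotide that DNA has and RNA lacks. HMMR is a hyaluronan receptor that also acts at the mitotic spindle, and TMPO encodes the LAP2 proteins, which tie chromatin to the nuclear lamina and come apart from it during mitosis. The facing genes are of 2 kinds. PCNA-AS1, HMMR-AS1 and TMPO-AS1 are non-coding, whereas ENOSF1 encodes a sugar-acid dehydratase and UBXN6 a cofactor of the segregase p97. Strand is the only thing that separates reads from 2 genes where their exons overlap, and the sources used here do not say how the counting treated strand. A value is therefore given as that of a row, and whether the RNA came from the gene the row is named for was not tested.

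The stretches below are parts of the 5 coding transcripts that the facing gene overlaps, shown because an RNA fragment from them can fall in either row of a pair. They are written 5′ to 3′ on the strand of the replication or mitosis gene and were read from GRCh38 with the GENCODE 29 models. The capitals in the first mark the start codon of PCNA, and the letters in lower case carry no mark.
PCNA in transcript PCNA-201, chr20:5119649-5119798, minus strand: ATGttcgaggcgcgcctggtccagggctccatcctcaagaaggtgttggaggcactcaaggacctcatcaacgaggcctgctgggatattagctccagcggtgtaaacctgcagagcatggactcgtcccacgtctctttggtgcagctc
TYMS in transcript TYMS-203, chr18:670692-670841, plus strand: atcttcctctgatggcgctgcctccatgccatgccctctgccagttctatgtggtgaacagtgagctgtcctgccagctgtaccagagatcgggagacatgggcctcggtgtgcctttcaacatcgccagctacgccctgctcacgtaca
CHAF1A in transcript CHAF1A-207, chr19:4444999-4445018, plus strand: aagaaactatattcaaacaa
HMMR in transcript HMMR-203, chr5:163483065-163483172, plus strand: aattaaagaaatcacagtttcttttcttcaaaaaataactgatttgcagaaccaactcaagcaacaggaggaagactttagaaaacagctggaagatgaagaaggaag
TMPO in transcript TMPO-212, chr12:98515991-98516140, plus strand: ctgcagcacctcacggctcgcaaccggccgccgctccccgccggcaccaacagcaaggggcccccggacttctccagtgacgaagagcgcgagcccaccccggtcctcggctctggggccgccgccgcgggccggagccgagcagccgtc
The PCNA, TYMS, HMMR and TMPO stretches are coding sequence. The CHAF1A stretch is all that UBXN6 overlaps.

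The facing genes meet their coding transcripts at different places. PCNA-AS1, placed by its RefSeq span, lies wholly within PCNA: all of its 384 nt overlap exons, and the nearest overlapped base is 903 nt from the 3′ end of the 1344 nt PCNA-201. TMPO-AS1 overlaps 713 nt of TMPO exons at the 5′ side, 3607 nt from the 3′ end of the 4242 nt TMPO-212. HMMR-AS1 overlaps 113 nt in the middle of HMMR, 1269 nt from the 3′ end of the 3102 nt HMMR-203. ENOSF1 runs tail to tail into TYMS and covers 967 nt, reaching the 3′ end itself. The UBXN6 pair is different in kind: the overlap is 20 nt, at the 3′ end of a 563 nt CHAF1A model only, and the longest coding transcript of CHAF1A stops 1606 nt short of UBXN6. The share of the first gene's exons that overlaps was 100% for PCNA-AS1, 21.2% for TMPO-AS1, 11.8% for HMMR-AS1, 8.48% for ENOSF1 and 0.379% for UBXN6.

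**Figure D1:**
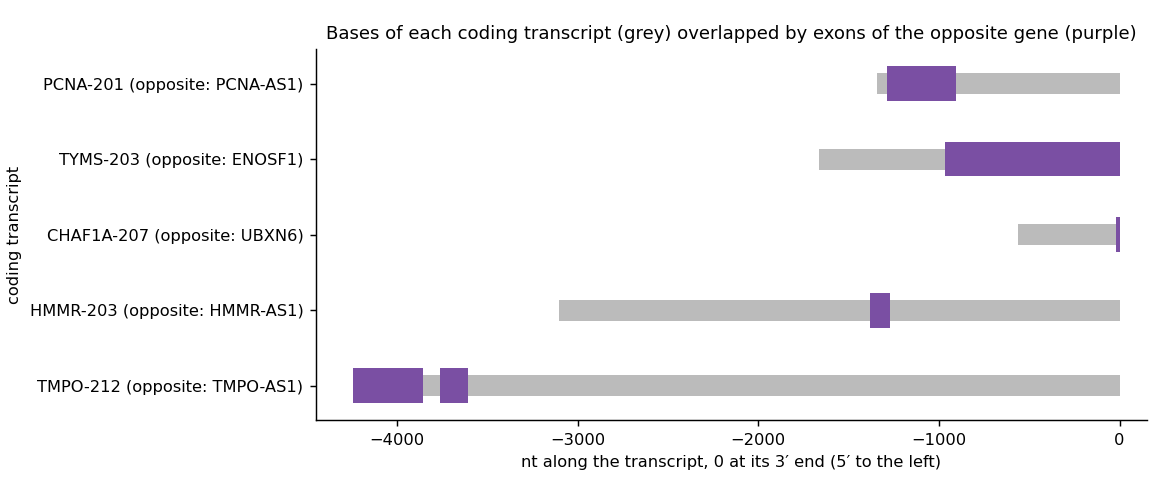
The horizontal axis is the position in nt along each coding transcript, with 0 at the 3′ end and the 5′ end to the left. Grey bars are the whole transcript and purple blocks are bases overlapped by exons of the facing gene, which lie at the 3′ end for TYMS and CHAF1A, 903 nt and 1269 nt from it for PCNA and HMMR, and 3607 nt from it for TMPO.

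The promoters of the 5 coding genes, which the counts cover only through their transcripts, were searched for 3 short motifs known from cell cycle genes. The search describes sequence, and no link between a match and a count was tested. Windows were the 250 bases before each RefSeq start on GRCh38.p14, searched on both strands for CCAAT (reverse ATTGG), for the CHR letters TTTGAA (reverse TTCAAA) and for the E2F letters TTTCCCGC (reverse GCGGGAAA). Overlapping matches such as a CCAAT beside its own reverse were counted separately. The share of all 35116 windows of that length with a match is 32.0% for CCAAT, 13.3% for TTTGAA and 1.39% for TTTCCCGC. The HMMR window held 5 CCAAT matches and 2 TTTGAA matches, the latter 28 and 22 nt before the start. The first PCNA window held 3 CCAAT matches and 1 E2F match, and the TYMS window held 1 E2F match, 39 nt before the start. CHAF1A held 4 CCAAT matches and TMPO 2. The window of the other PCNA start held 2 CCAAT matches and no E2F match. That other start lies closer than the first to the PCNA stretch that PCNA-AS1 overlaps. Starts were not matched to the transcripts used for the overlaps. Of the facing genes, PCNA-AS1 held 2 CCAAT matches and 1 E2F match and ENOSF1 held 1 CCAAT match, while UBXN6, HMMR-AS1 and TMPO-AS1 held 0 matches of any of the 3 motifs. The windows of HMMR, PCNA (first window only) and TYMS are shown with the matches in capitals, for the coding genes that hold the 2 rarer motifs.
HMMR, chr5:163460382-163460631, plus strand: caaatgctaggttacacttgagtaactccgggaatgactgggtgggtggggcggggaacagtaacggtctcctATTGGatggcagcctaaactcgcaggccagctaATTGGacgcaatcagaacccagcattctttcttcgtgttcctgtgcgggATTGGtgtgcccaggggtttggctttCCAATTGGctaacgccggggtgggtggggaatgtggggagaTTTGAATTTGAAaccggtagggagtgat
PCNA, chr20:5126623-5126872, minus strand: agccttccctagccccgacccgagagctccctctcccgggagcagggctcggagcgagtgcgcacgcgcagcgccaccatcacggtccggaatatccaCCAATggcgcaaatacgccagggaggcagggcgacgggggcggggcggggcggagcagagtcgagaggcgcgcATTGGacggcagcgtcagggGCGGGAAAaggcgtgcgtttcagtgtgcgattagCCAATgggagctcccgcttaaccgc
TYMS, chr18:657403-657652, plus strand: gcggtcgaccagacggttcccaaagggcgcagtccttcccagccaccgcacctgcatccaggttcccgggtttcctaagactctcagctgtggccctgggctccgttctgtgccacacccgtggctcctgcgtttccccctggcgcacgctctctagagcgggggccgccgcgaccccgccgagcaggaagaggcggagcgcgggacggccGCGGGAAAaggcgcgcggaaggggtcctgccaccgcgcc
A match is a run of letters and was not tested as a binding site.

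In every pair the first row held most of the counts. Over the 9 libraries PCNA-AS1 had 16960 counts against 28 for PCNA, a ratio of 606, and HMMR-AS1 had 3123 against 8 for HMMR, a ratio of 390. The ENOSF1 row had 43730 counts against 1140 for TYMS, a ratio of 38.4, and was the 8th largest row of the table by total count. TMPO-AS1 had 6170 counts against 488 for TMPO, a ratio of 12.6, and UBXN6 had 484 against 78 for CHAF1A, a ratio of 6.21. Per kb of annotated exon the ratio of the first to the second row was 2320 for PCNA-AS1, 1606 for HMMR-AS1, 32.4 for TMPO-AS1, 8.31 for ENOSF1 and 5.06 for UBXN6. PCNA-AS1 and HMMR-AS1 thus led by both measures and UBXN6 was last, while ENOSF1, with 11398 nt of exon, and TMPO-AS1, with 3357 nt, changed places. The 2 pairs with the most uneven counts are those whose second gene, PCNA or HMMR, fell below the filter for testing.

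The smallest library, control replicate 1, held 363557 counts and the largest, V. cholerae replicate 3, held 733412. Of the 26008 rows, 3679 passed the filter, and 8 of the 10 rows described here were among them. On the CPM scale used here (the count over the TMM-scaled total of the tested rows) 3 counts equal 3.88 to 9.07 CPM. All 12 epithelial marker genes had counts, with a summed count of 7660 to 11477 per library that was mostly KRT8, while EPCAM had only 5 to 17 counts per library and CDH1 0 to 9. ELF3 (0 to 2), VIL1 (0 to 4), CLDN3 (0 to 5) and CDX1 (0 to 11) were also at 0 in some library. The KRT8 row faces KRT18, whose own row held 56 to 96 counts, so the limit of strand given above holds for KRT8 too. It also holds for VIL1, whose facing row, USP37, held 417 to 800 counts per library. Of 11 markers of other cell types, 6 (PTPRC, CD3E, COL1A2, COL3A1, VWF and HBB) were at 0 in all libraries, and CD68 (16 to 74 counts per library, above EPCAM), PECAM1 (2 to 19) and ACTA2 (2 to 10) were not. The summed count of the other-cell list was 37 to 72 in control, 22 to 100 with V. cholerae vesicles and 47 to 77 with E. coli vesicles. Replicate 3 of each group stood apart from replicates 1 and 2: the chi-square per degree of freedom between 2 libraries of a group was 6.38 to 11.7 where replicate 3 was involved and 1.07 to 2.15 between replicates 1 and 2. V. cholerae replicates 1 and 2, at 1.07 over 3571 rows, were close to sampling noise, although the chi-square test still separated them (p = 0.000979), so they were kept as 2 libraries. Nothing in the labels says that the 3 samples of a group came from separate cultures, so the spread between them may be technical.

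**Figure D2:**
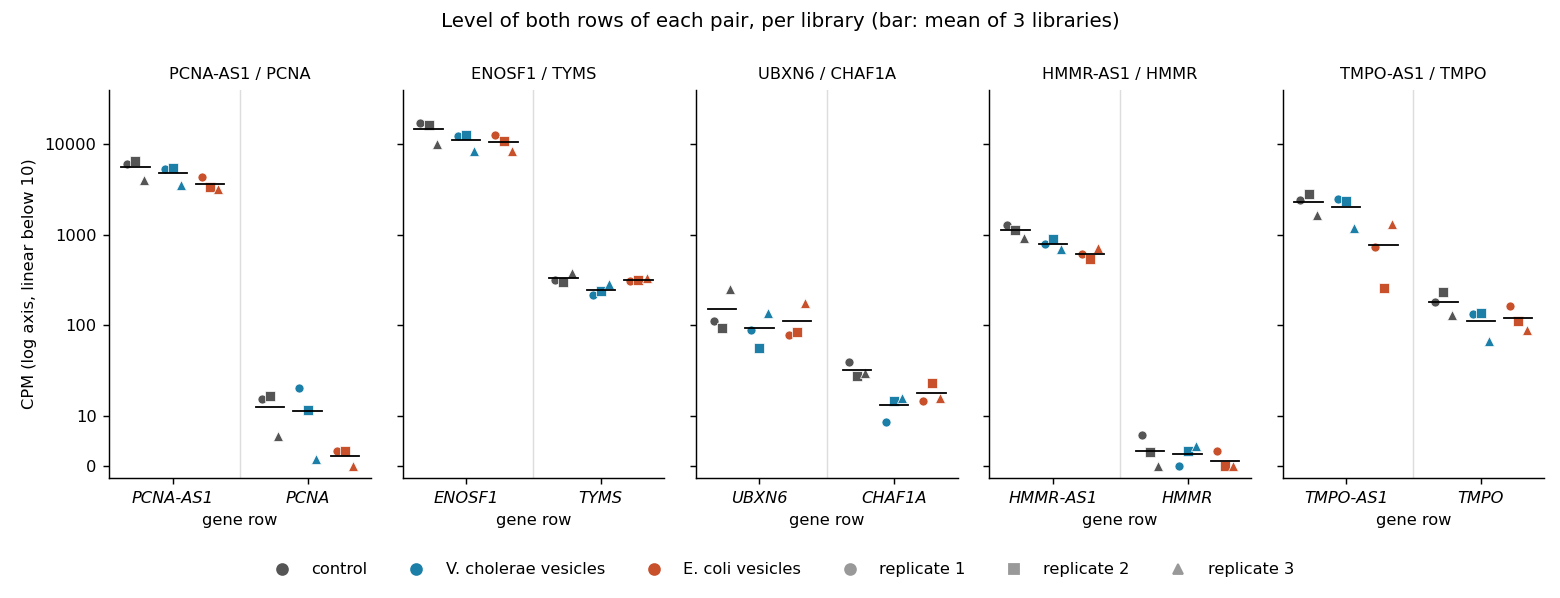
The vertical axis is CPM on a log scale that is linear below 10, and each of the 5 panels holds the first and the second row of a pair. Points are libraries (colour for the group, shape for the replicate number) and black bars are means of 3 libraries; the first row is above the second in every library of every pair, and PCNA and HMMR lie near 0.

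Among the replication rows, PCNA-AS1 was lower after E. coli vesicles in all same-numbered pairs. Its level was 6072, 6549 and 4040.1 CPM in control replicates 1, 2 and 3, against 4385, 3341 and 3201 CPM with E. coli vesicles and 5284, 5421 and 3544 CPM with V. cholerae vesicles. Replicate 3 was the lowest of its group each time, and the groups overlap because of it. The group means were 5554 ± 1332 CPM in control, 3643 ± 647 with E. coli vesicles and 4749 ± 1046 with V. cholerae vesicles (SD, n = 3). The log2 ratio to the same-numbered control was -0.47, -0.97 and -0.34 with E. coli vesicles and -0.20, -0.27 and -0.19 with V. cholerae vesicles. The fitted log2 fold change was -0.61 ± 0.26 (SE) with E. coli vesicles, with an adjusted p of 0.384 in edgeR's quasi-likelihood test over 3679 rows, and with the replicate number as a block it was -0.59 ± 0.12 with an adjusted p of 0.0170. That with V. cholerae vesicles was -0.23 ± 0.26, and it became -0.42 when control replicate 3 was left out and -0.05 when V. cholerae replicate 3 was.

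The PCNA row itself held almost nothing. Its counts were 5, 6 and 3 in the control libraries, 7, 4 and 1 with V. cholerae vesicles and 1, 1 and 0 with E. coli vesicles. All E. coli libraries are below the floor of 3 counts used here for a level that can be told from 0, so no fold change is given. PCNA-AS1 made up 99.6% to 100% of the counts of the pair in each library. In the E. coli replicate 3 library, which had 0 PCNA counts, the 1443 counts of the pair allow PCNA a share of up to 0.208%.

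The row facing TYMS was lower with both vesicles, and TYMS itself only with those of V. cholerae. ENOSF1 read 17244, 16447 and 10002 CPM in control, 12731, 10978 and 8355 with E. coli vesicles, and 12422, 12596 and 8326 with V. cholerae vesicles. Replicates 1 and 2 of both vesicle groups lay below replicates 1 and 2 of the control, and control replicate 3 fell among the vesicle libraries. The log2 fold change of ENOSF1 was -0.45 ± 0.28 with E. coli vesicles and -0.39 ± 0.28 with V. cholerae vesicles. With the replicate block these were -0.43 ± 0.09 (edgeR adjusted p = 0.0198) and -0.37 ± 0.09 (edgeR adjusted p = 0.114). The 6 same-numbered log2 ratios of ENOSF1 to control lay between -0.58 and -0.26.

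TYMS read 317, 296 and 374 CPM in control and 309, 314 and 328 CPM with E. coli vesicles, so those groups overlap. With V. cholerae vesicles it read 215, 239 and 283 CPM, below every control library and also below every E. coli library. The log2 fold change against control was -0.42 ± 0.23 with V. cholerae vesicles and -0.06 ± 0.23 with E. coli vesicles, and the direct contrast of V. cholerae against E. coli vesicles gave -0.36 ± 0.23 (edgeR adjusted p = 0.669, and 0.259 with the replicate block). In each group TYMS was highest in replicate 3, the library in which ENOSF1 was lowest. A further gene faces TYMS at its 5′ side, TYMSOS, with 183 nt of exon overlap, and its row held 103 to 369 counts per library.

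CHAF1A, with few counts, was lower with both vesicles in every library. Its counts were 13, 10 and 15 in control, 5, 8 and 7 with E. coli vesicles and 3, 5 and 12 with V. cholerae vesicles, or 32.2 ± 6.27, 17.7 ± 4.71 and 12.9 ± 3.67 CPM (SD, n = 3). On the CPM scale neither vesicle group overlaps the control, and the 2 vesicle groups overlap each other. The log2 fold change was -0.85 ± 0.47 with E. coli vesicles and -1.24 ± 0.48 with V. cholerae vesicles, and neither passed the test (edgeR adjusted p = 0.536 and 0.999). UBXN6 read 112, 93.2 and 249 CPM in control, 78.0, 83.7 and 175 with E. coli vesicles and 87.3, 55.4 and 134 with V. cholerae vesicles. Replicate 3 was the highest library of each group for UBXN6, by more than the groups differ. Its log2 fold change was -0.43 ± 0.42 with E. coli vesicles, which turned to 0.15 without control replicate 3, and -0.69 ± 0.42 with V. cholerae vesicles, which became -0.11 without that library.

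Among the mitosis rows, HMMR-AS1 was below the control in every library of both vesicle groups. It read 1288, 1127 and 928 CPM in control, 604, 537 and 703 with E. coli vesicles and 780.2, 904 and 685 with V. cholerae vesicles. The lowest control library is 928 CPM and the highest vesicle library 904 CPM, so the groups are separate but close on the V. cholerae side. The log2 fold change with E. coli vesicles was -0.86 ± 0.23 (edgeR adjusted p = 0.160), and with the replicate block -0.84 ± 0.16 (edgeR adjusted p = 0.0123). The same-numbered log2 ratios were -1.09, -1.06 and -0.40 with E. coli vesicles and -0.72, -0.32 and -0.43 with V. cholerae vesicles, where the fit gave -0.50 ± 0.23. HMMR had 0 to 3 counts per library in all 9 libraries, at or under the floor of 3 counts, so no direction can be read for it.

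TMPO-AS1 had the largest fold change of the 8 tested rows after E. coli vesicles and the widest spread. It read 2433, 2811 and 1659 CPM in control and 737, 259.7 and 1309 CPM with E. coli vesicles. Every E. coli library is below every control library, but the 3 E. coli libraries are farther apart from each other than the control libraries are on the log scale. The log2 ratio to the same-numbered control was -1.72, -3.41 and -0.34. The log2 fold change was -1.58 ± 0.42 (edgeR adjusted p = 0.165), and the replicate block widened its error to 0.73 (log2 fold change -1.59, edgeR adjusted p = 0.322). Leaving out E. coli replicate 3 moved the log2 fold change to -2.21 (edgeR adjusted p = 0.00410), whereas leaving out replicate 2 of that group gave -1.18. With V. cholerae vesicles TMPO-AS1 read 2504, 2333 and 1179 CPM and overlapped the control, with a log2 fold change of -0.20 ± 0.41 that turned to 0.07 without V. cholerae replicate 3 and, in the blocked fit, to 0.21 without control replicate 2. The direct contrast of V. cholerae against E. coli vesicles gave 1.38 ± 0.42 (edgeR adjusted p = 0.318), with log2 ratios of 1.76, 3.14 and -0.15 in replicates 1, 2 and 3.

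TMPO, on the other strand, shared only part of that pattern of libraries. It read 181, 230.4 and 129 CPM in control, 165, 109.6 and 88.7 with E. coli vesicles and 134, 137 and 65.9 with V. cholerae vesicles. Its lowest library was replicate 3 in each group, as for TMPO-AS1 in control and with V. cholerae vesicles. With E. coli vesicles replicate 3 was instead the highest library of TMPO-AS1. Both rows had their lowest log2 ratio to control with E. coli vesicles in replicate 2, at -3.41 for TMPO-AS1 and -1.04 for TMPO. The log2 fold change of TMPO was -0.58 ± 0.34 with E. coli vesicles and -0.71 ± 0.34 with V. cholerae vesicles, and both vesicle groups overlap the control. With 1 library left out these values reached -0.36 (E. coli vesicles, without control replicate 2) and -0.40 (V. cholerae vesicles, without V. cholerae replicate 3).

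Read together against control, the 8 tested rows had a negative log2 fold change in both vesicle comparisons (with 1 library left out, TYMS and UBXN6 with E. coli vesicles and TMPO-AS1 with V. cholerae vesicles changed sign), with a median of -0.59 for E. coli vesicles and -0.46 for V. cholerae vesicles, where the median over all 3679 rows was -0.01 and 0.01. The control libraries are shared by both comparisons. By group alone edgeR called 0 of the 8 rows at an adjusted p under 0.05 in either comparison, beside 0.19% of all rows with E. coli vesicles and 0.0544% with V. cholerae vesicles. DESeq2 called 1 of them, TMPO-AS1, lower with E. coli vesicles (adjusted p = 0.0195), beside 0.951% of all rows. With the replicate block edgeR called 3 of the 8, PCNA-AS1, ENOSF1 and HMMR-AS1, all lower with E. coli vesicles, beside 2.28% of all rows (0.815% lower), and 0 with V. cholerae vesicles beside 0.353%. At an unadjusted p under 0.05 without the block, 3 of the 8 passed with E. coli vesicles (TMPO-AS1, PCNA-AS1 and HMMR-AS1), beside 11.3% of all rows, and 2 with V. cholerae vesicles (CHAF1A and HMMR-AS1), beside 2.72%. In 7 of the 8 all 3 same-numbered ratios were below 0 with E. coli vesicles (TYMS was the exception, background 20% of rows) and in 7 of the 8 with V. cholerae vesicles (TMPO-AS1 was the exception, background 17.3%). The E. coli group lay wholly below the control in 3 of the 8 (CHAF1A, HMMR-AS1 and TMPO-AS1), beside 8.7% of all rows, and the V. cholerae group in 3 of the 8 (TYMS, CHAF1A and HMMR-AS1), beside 3.64%. Because the choice of rows used these contrasts, nothing is read from these shares.

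The calls rest on few libraries, and the block rests on replicate numbers for which the sample titles state no pairing. With the replicate block the call of PCNA-AS1 with E. coli vesicles was lost when control replicate 1, control replicate 2 or E. coli replicate 1 was left out (edgeR adjusted p = 0.154, 0.283 and 0.149). That of HMMR-AS1 was lost in the same cases (0.195, 0.125 and 0.195). That of ENOSF1 was lost in the same cases too (0.196, 0.283 and 0.205), and without E. coli replicate 2 (0.0551) or V. cholerae replicate 1 (0.0561). The fold changes of PCNA-AS1, HMMR-AS1 and ENOSF1 stayed below 0 each time.

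Without replicate 3 of all groups, which stood apart from the others, 4 of the 7 rows still tested were called lower with E. coli vesicles, beside 24.4% of all rows. They were TMPO-AS1 (log2 fold change -2.39 ± 0.49, edgeR adjusted p = 0.0499), HMMR-AS1 (-1.08 ± 0.12, 1.24e-07), PCNA-AS1 (-0.71 ± 0.10, 2.81e-06) and ENOSF1 (-0.50 ± 0.08, 2.21e-05). With the replicate block as well, TMPO-AS1 was no longer called (-2.45 ± 0.55, edgeR adjusted p = 0.104) and PCNA-AS1, HMMR-AS1 and ENOSF1 still were. Of the same 7, 2 were called lower with V. cholerae vesicles, ENOSF1 (-0.43 ± 0.08, 0.00160) and HMMR-AS1 (-0.52 ± 0.12, 0.0147), beside 1.88% of all rows. In the direct contrast PCNA-AS1 (0.46 ± 0.10, 0.000816) and HMMR-AS1 (0.56 ± 0.13, 0.00182) were called higher with V. cholerae vesicles, beside 23.6% of all rows. The share of rows called with E. coli vesicles thus turned on replicate 3, for the table as for these rows. With 2 libraries a group, V. cholerae replicates 1 and 2 being close to sampling noise, the spread behind these calls is small.

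**Figure D3:**
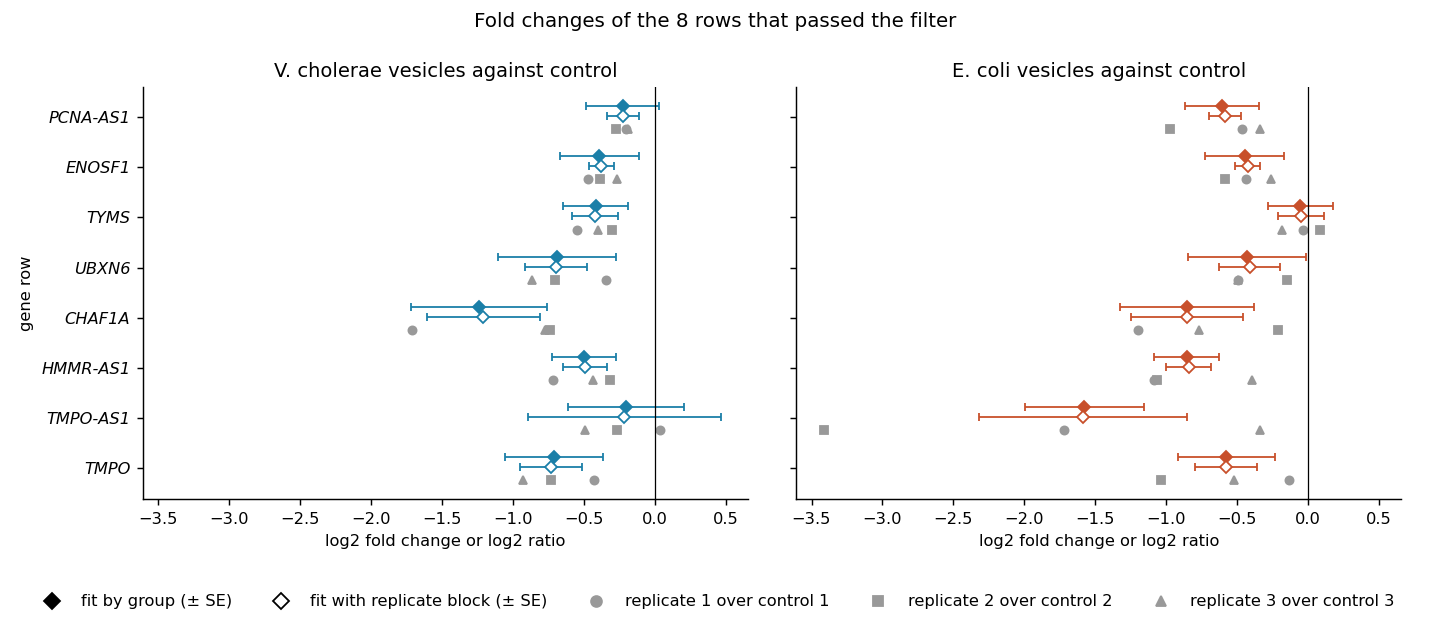
The horizontal axis is the log2 fold change against control, or the log2 ratio of 2 same-numbered libraries, for the 8 tested rows. Filled diamonds are the fit by group and open diamonds the fit with the replicate block (bars: SE), and grey points are the 3 same-numbered ratios; TMPO-AS1 spans -3.41 to -0.34 with E. coli vesicles, while the 3 ratios of ENOSF1 lie between -0.58 and -0.26.

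In the direct contrast of the 2 vesicles, 0 of the 8 rows passed edgeR's test by group or with the replicate block (smallest adjusted p = 0.318 and 0.138), beside 0% and 0.0544% of all rows. At an unadjusted p under 0.05, 1 of the 8, TMPO-AS1, passed by group, beside 9.05% of all rows. DESeq2 called 0 of the 8, beside 0.136% of all rows. Without the filter on low counts edgeR called TMPO-AS1 (log2 fold change 1.44, adjusted p = 0.00257), beside 0.198% of 15633 rows. The median log2 fold change of the 8 was -0.04, beside 0.02 over all rows. TYMS was the only row of the 8 whose vesicle groups did not overlap, lower with V. cholerae vesicles, beside 4.1% of all rows.

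The balance of the 2 rows within a pair differed most between libraries in the TMPO pair. TMPO-AS1 held 93.1%, 92.4% and 92.8% of the pair's counts in the control libraries, a spread of under 1 point. It held 81.7% (exact Clopper-Pearson 95% interval 77.0% to 85.9%), 70.3% (61.6% to 78.1%) and 93.7% (91.5% to 95.4%) with E. coli vesicles. E. coli replicates 1 and 2 are thus outside the intervals of all control libraries (90.7% to 94.7%), and replicate 3 is not. With V. cholerae vesicles the share was 94.9%, 94.5% and 94.7%, above every control library by 1.94 percentage points on average. The mean difference with E. coli vesicles was -10.9 points, which became -16.7 when E. coli replicate 3 was left out and -5.06 when replicate 2 of that group was. The intervals cover counting error only.

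In the other pairs the mean difference from control was at most 6.39 points, for UBXN6 with V. cholerae vesicles, and this was 3.30 without control replicate 1 and 10.9 without control replicate 3. For UBXN6 with E. coli vesicles the difference lay between 1.19 (without E. coli replicate 3) and 9.23 points (without control replicate 3). ENOSF1 held 96.2% to 98.3% of its pair, and replicate 3 was the lowest of each group (96.4%, 96.7% and 96.2%). UBXN6 held 74.0% to 91.9%, with intervals as wide as 57.8% to 92.9% in a library of 24 counts. HMMR-AS1 held 99.4% to 100%. In an exact two-sided permutation test of 3 libraries against 3, where the smallest possible p is 0.1, the shares of TMPO-AS1 with V. cholerae vesicles and of PCNA-AS1 with E. coli vesicles (0.165 points higher) reached p = 0.1, and the Benjamini-Hochberg adjusted p over the 10 comparisons was 0.5 for both. The other 8 comparisons had p from 0.2 to 1 (adjusted p 0.667 to 1). With a smallest possible p of 0.1, this design could not separate any of the 10 comparisons. The pairs were also chosen by values of these rows, so nothing is read from these p-values.

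**Figure D4:**
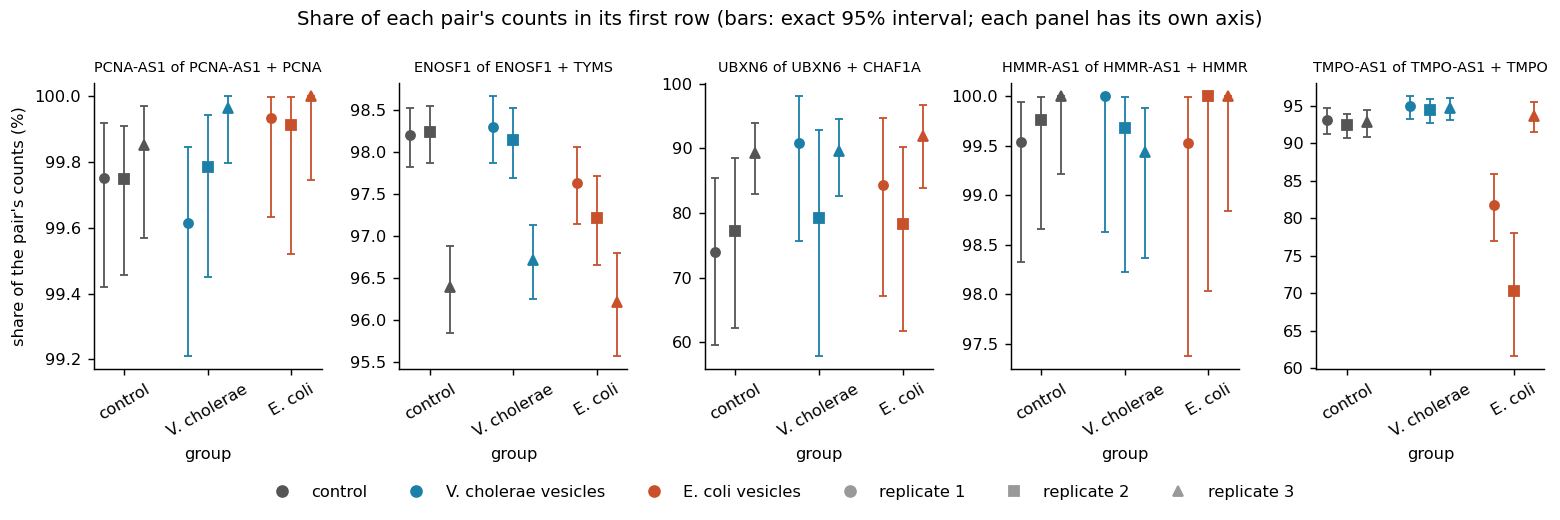
The vertical axis is the percentage of a pair's counts in its first row, and each of the 5 panels has its own range. Points are libraries by group and replicate number, and bars are exact 95% intervals; TMPO-AS1 is at 81.7% and 70.3% in E. coli replicates 1 and 2 and is 93.7% in replicate 3.

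The fold changes with E. coli vesicles were in the order of the place of the overlap along the coding transcript in the 4 pairs with more than 20 nt of overlap. Ordered by distance from the 3′ end, they were -0.45 for ENOSF1 at 0 nt, -0.61 for PCNA-AS1 at 903 nt, -0.86 for HMMR-AS1 at 1269 nt and -1.58 for TMPO-AS1 at 3607 nt. In replicate 3 the order did not hold, with same-numbered log2 ratios of -0.26, -0.34, -0.40 and -0.34. These 4 rows were chosen with this contrast known, so their order is a description and supports no trend. Over the 1483 tested rows with a coding gene opposite, the fold changes also fell with distance. The median log2 fold change with E. coli vesicles was 0.14 in 883 rows under 500 nt from the 3′ end, -0.14 in 264 rows from 500 to 1500 nt, -0.29 in 176 rows from 1500 to 3000 nt and -0.64 in 160 rows at 3000 nt or more. With V. cholerae vesicles the 4 medians lay between -0.03 and 0.00. The trend also differed between replicates: in the class at 3000 nt or more the median same-numbered log2 ratio was -0.74, -1.21 and -0.09 in replicates 1, 2 and 3. The summed CPM of rows at 3000 nt or more was 7.54% to 7.84% of that of rows under 500 nt in control libraries and 6.78% to 7.65% in V. cholerae libraries. In E. coli libraries it was 4.20%, 3.51% and 6.98%, so replicates 1 and 2 are low and replicate 3 is within the V. cholerae range. The first rows of the pairs were set beside this trend in 2 ways, both chosen after seeing the data.

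First, each first row was set beside the rows at a like distance (within 25% of it, or under 100 nt for ENOSF1 and UBXN6). TMPO-AS1, at -1.58, was beside 115 rows with a median of -0.63. HMMR-AS1, at -0.86, was beside 137 rows with a median of -0.23. PCNA-AS1, at -0.61, was beside 128 rows with a median of -0.12. ENOSF1 and UBXN6, at -0.45 and -0.43, were beside 688 rows with a median of 0.18. The first rows were chosen with these contrasts known and their neighbours were not, so the gaps are a description and do not separate the pairs from the trend.

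Second, a smooth trend of log2 CPM over distance was removed from each library, over 1484 rows (the 1483 and PCNA-AS1). With E. coli vesicles and the replicate block, the log2 fold change was then -0.43 ± 0.10 (SE) for PCNA-AS1, -0.59 ± 0.11 for ENOSF1 and -0.62 ± 0.13 for HMMR-AS1. For TMPO-AS1 it was -1.10 ± 0.42, which is closer to 0 than the -1.59 before removal. These values carry the same choice of rows, and nothing is read from them about what the trend accounts for. What sets the trend over distance was not tested.

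**Figure D5:**
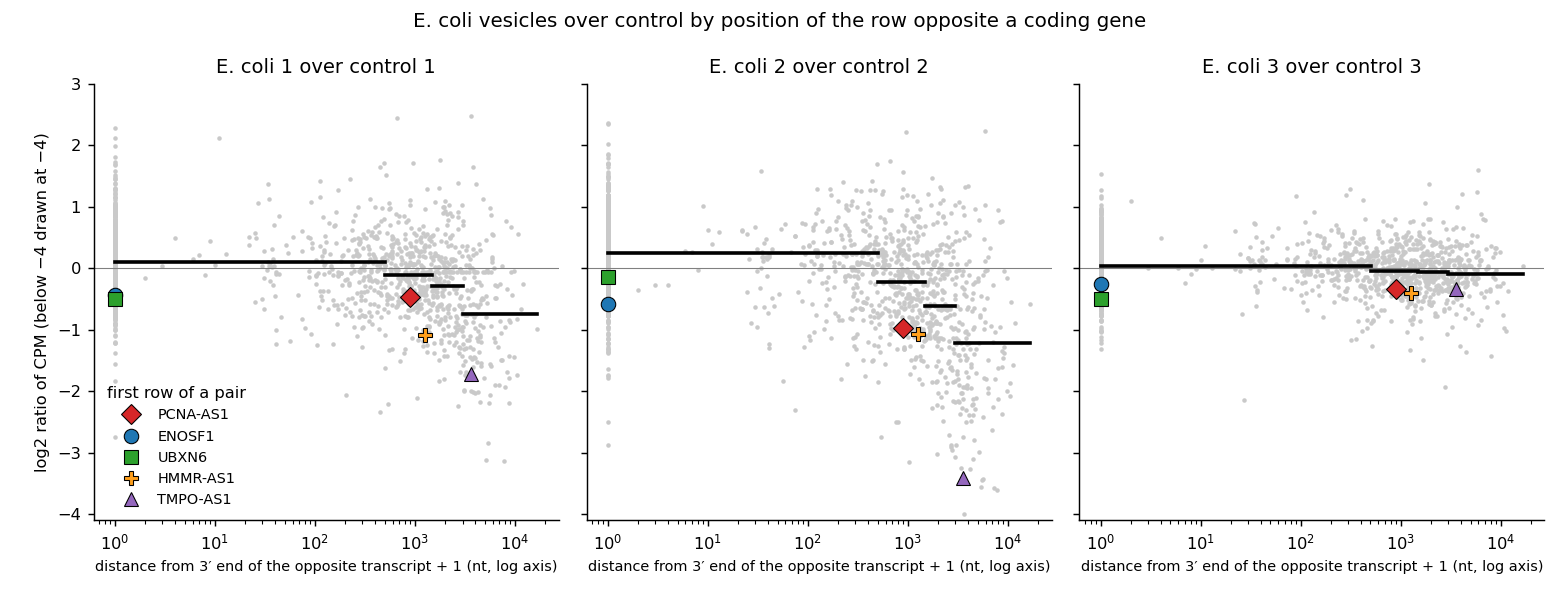
The horizontal axis is the distance in nt (plus 1, log axis) from the 3′ end of the facing coding transcript, and the vertical axis is the log2 ratio of an E. coli library to the same-numbered control, 1 panel per replicate number. Grey points are other rows with a coding gene opposite, black bars are the medians of the 4 distance classes and coloured symbols the first rows of the 5 pairs; the median beyond 3000 nt is -0.74, -1.21 and -0.09 in the 3 panels.

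The replicate number also ordered the rows among themselves. With group means removed, PCNA-AS1, ENOSF1 and TMPO varied together over the 9 libraries (Pearson r of log2 CPM 0.91 to 0.96), and TYMS and UBXN6 varied together (r = 0.75) and against those 3 (r = -0.94 to -0.86). These correlations share libraries and scaling and turn on replicate 3, which was lowest for PCNA-AS1, ENOSF1 and TMPO and highest for TYMS and UBXN6 in all 3 groups. HMMR-AS1 and TMPO-AS1 went together (r = 0.77 after group means). The rows most like each first row over the 9 libraries, among 1938 other rows whose mean reached 50 CPM, were LNX1, C6orf201 and POLR2I for PCNA-AS1 (r = 0.97 each). For ENOSF1 they were COX11, NOP14-AS1 and MED31 (r = 0.95 to 0.96), for UBXN6 TMEM80, COL10A1 and STK17A (r = 0.94 to 0.95), and for HMMR-AS1 LOC101929231, LRP4-AS1 and CHRNA3 (r = 0.95 to 0.98). TMPO-AS1 had the closest likenesses, STARD7-AS1, LOC100652770 and ANAPC10 (r = 0.993 to 0.995).

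Other genes of replication and nucleotide supply, of mitosis and of the nuclear envelope were read by their own rows and by the rows that face them. Of 57 replication genes 14 own rows and 7 facing rows were tested, of 65 mitosis genes 13 own and 11 facing rows, and of 11 envelope genes 4 own rows. Of these 49 rows edgeR and DESeq2 each called 0 in any of the 3 comparisons by group. Over all 3679 rows edgeR called 0.0544% with V. cholerae vesicles, 0.19% with E. coli vesicles and 0% in the direct contrast. The shares called by DESeq2 were 0.109%, 0.951% and 0.136% in the same order. At an unadjusted p under 0.05 edgeR gave 4 of the 49 with V. cholerae vesicles, 8 with E. coli vesicles and 8 in the direct contrast, where 2.72%, 11.3% and 9.05% of all 3679 rows passed. With the replicate block 0 of the 49 were called with V. cholerae vesicles and in the direct contrast, beside 0.353% and 0.0544% of all rows. In the same fit 1 was called lower with E. coli vesicles, beside 2.28% of all rows (0.815% lower).

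The other facing rows had fold changes on both sides of 0 with E. coli vesicles. The median log2 fold change with E. coli vesicles was 0.21 over the 7 rows facing replication genes and 0.09 over the 11 facing mitosis genes, and 2 of the 7 and 5 of the 11 were below 0. With V. cholerae vesicles the medians were -0.32 and -0.10, and 7 of 7 and 7 of 11 were below 0. Over all 3679 tested rows 50.7% were below 0 with E. coli vesicles and 49.2% with V. cholerae vesicles. By own rows the medians with E. coli vesicles were 0.00 for replication, -0.28 for mitosis and -0.05 for the envelope. The facing rows with the highest means had log2 fold changes with E. coli vesicles of 0.10 ± 0.23 for PRC1-AS1 (facing PRC1, which bundles microtubules of the central spindle), 0.09 ± 0.25 for LCORL (facing NCAPG of condensin) and -0.26 ± 0.26 for EXOSC9 (facing CCNA2, cyclin A2). Among rows facing replication genes they were 0.22 ± 0.30 for SMCR8 (facing SHMT1, which feeds thymidylate synthesis), -0.50 ± 0.23 for GSE1 (facing GINS2 of the replicative helicase) and 0.15 ± 0.42 for INTS8 (facing CCNE2, cyclin E2). PRC1-AS1, LCORL, EXOSC9, SMCR8, GSE1 and INTS8 lie within 348 nt of the 3′ end of the gene they face. All rows under 500 nt had a median of 0.14, so these rows are not at a like distance to PCNA-AS1, HMMR-AS1 and TMPO-AS1. Farther rows facing mitosis genes were GNB3 (CDCA3, 574 nt, 0.29 ± 0.27), SGOL1-AS1 (SGO1, 953 nt, -0.17 ± 0.25) and KIAA0895 (ANLN, 4548 nt, -0.99 ± 0.41). The same-numbered log2 ratios of KIAA0895 were -1.59, -2.38 and 0.22. The highest envelope rows, SUN2, BANF1 and ANKLE2, had log2 fold changes of -0.06 ± 0.28, -1.01 ± 0.52 and 0.61 ± 0.44.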

How the data were processed

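The deposited table gives whole-number counts per gene row, 1 column per library, which the authors made from single 50 bp reads of strand-marked poly-A libraries. The submitters' processing notes list HTSeq 0.6.1 and Cufflinks 2.2.1 beside TopHat2 2.0.12, Bowtie2 2.2.3, SAMtools 0.1.19, FastQC and hg19, and give neither the strand setting nor the annotation. The table's 9 columns were all used.

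The whole table was fitted with edgeR 4.0.16 (R 4.3.3): filterByExpr by group (a minimum count of 10 and a minimum total of 15), TMM scaling and the robust quasi-likelihood F-test over all 9 libraries by group, with Benjamini-Hochberg adjustment over 3679 rows and a threshold of 0.05. SE is the log2 fold change over the square root of F. Same-numbered log2 ratios use a prior count of 2. The script was tested on simulated data.

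The rows, gene lists and tests were chosen with earlier results of these data known. Named were all 10 rows, the 3 rows most like each first row (Pearson, mean of at least 50 CPM), and from each list the 3 rows with the highest mean. Outside this rule, GNB3, SGOL1-AS1 and KIAA0895 were named for their distance from the 3′ end. The rule also takes called rows of the lists, and the 1 such row is not reported here. In edgeR's residuals from group means every same-numbered pair of libraries correlated at over 0.1 (0.115 to 0.677), and each comparison was also fitted with the replicate number as a block. Replicates 1 and 2 correlated as well across numbers (0.133 to 0.350), so these correlations do not show that libraries of the same number belong together. The sample titles number the replicates and state no pairing.

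Strand and overlap come from GENCODE 29 on GRCh38, in which 24266 of the table's rows were found by name, with older names from RefSeq. The counts were made on hg19, so coordinates are given only for sequences from GRCh38. Motif windows are from RefSeq. Alternatives were RLE scaling, library size alone, no filter, at least 5 CPM in at least 3 libraries, DESeq2 1.42.0, limma 3.58.1 voom, only the 2 groups compared, the replicate block, leaving out each library, and replicates 1 and 2 alone. Chosen after seeing the data were replicates 1 and 2 with the block, V. cholerae replicates 1 and 2 summed, and rows with a coding gene opposite, with and without removal of the trend over distance (lowess, span 0.3).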

Additional observations from a re-analysis of the deposited data

How the results depend on the processing

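Across the alternatives, the log2 fold changes of PCNA-AS1, ENOSF1, CHAF1A, HMMR-AS1 and TMPO against control stayed below 0 with both vesicles, as did those of TMPO-AS1 with E. coli vesicles and of TYMS and UBXN6 with V. cholerae vesicles. Depth limits CHAF1A, UBXN6, PCNA and HMMR most. PCNA and TMPO have pseudogene copies, and how the counting split such reads is not known.

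Counts of rows called are given for V. cholerae vesicles, E. coli vesicles and the direct contrast in that order. The fit by group gave 2, 7 and 0 of 3679 rows and 0 of the 8 rows described. The number of rows tested differs between fits. With no filter they were 5, 40 and 31 of 15633 rows (0.032%, 0.256% and 0.198%), with 1 of the described rows (TMPO-AS1) in each of the last 2. With DESeq2 they were 4, 35 and 5 of 3679 rows (0.109%, 0.951% and 0.136%), with TMPO-AS1 called with E. coli vesicles. limma voom called 0 with V. cholerae vesicles. In the direct contrast the filter of 5 CPM gave 3 of 8656 rows and the fit of only the 2 groups gave 1 of 3213. The replicate block gave 13, 84 and 2 of 3679 rows (0.353%, 2.28% and 0.0544%), with 3 described rows for E. coli vesicles. It changed no other call of these rows. Replicates 1 and 2 alone gave 61, 793 and 766 of 3249 rows (1.88%, 24.4% and 23.6%), with 2, 4 and 2 described rows. With the replicate block as well they gave 50, 769 and 746 (1.54%, 23.7% and 23%), with 2, 3 and 2 described rows. With V. cholerae replicates 1 and 2 summed there was 1 of 4091 rows with V. cholerae vesicles. With the replicate block there were 7 and, for E. coli vesicles, 50 rows (1.22%) with 3 described. Among 1484 rows with a coding gene opposite, 0 and 2 were called with V. cholerae and E. coli vesicles, and 2 with each vesicle after the distance trend was removed. With the replicate block these fits gave 8 and 53 rows (3.57% with E. coli vesicles), and 13, 61 and 14 after removal (4.11% with E. coli vesicles). Before and after removal, 3 described rows were called with E. coli vesicles.

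Leaving out each library gave 0 to 5, 3 to 236 and 0 to 204 rows, and with the block 4 to 77, 3 to 817 and 0 to 747; the highest counts but the 5, which came without V. cholerae replicate 3, came without E. coli replicate 3. Of the described rows 0, 0 to 2 and 0 to 1 were called, and 0 to 4, 0 to 5 and 0 to 3 with the block. The counts of 2 and 1 came without E. coli replicate 3, where 6.08% and 5.25% of all tested rows were called. So did the 4, 5 and 3 with the block, beside 1.98%, 21% and 19.2% of all tested rows. The share differences of ENOSF1 with V. cholerae vesicles (-0.497 to 0.611 points), PCNA-AS1 with V. cholerae vesicles (-0.0839 to 0.0899) and HMMR-AS1 with V. cholerae (-0.206 to 0.0759) and E. coli vesicles (-0.0374 to 0.237) changed sign when a library was left out. What sets these shifts was not tested.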
